A study of Mus musculus with 14 samples.

Results

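miR-144, miR-451 and miR-486 are the miRNAs that mature red blood cells hold in large amounts, and they were followed here in plasma of mice with osteosarcoma (OS). Every named well of these miRNAs was taken, whichever arm it measured and under mouse or rat names. This gave 4 wells, those of mmu-miR-144, mmu-miR-451, mmu-miR-486 and mmu-miR-486*, of 392 named wells with 389 miRNAs. All 4 were measured in all 14 mice. Plasma came from 8 GEMM mice with OS and from 6 wild-type controls, 1 sample per mouse. The methods name more profiled mice with OS than were analysed here. The genetically engineered mice carry Cre under a 2.3 kb Col-α1(I) promoter, which acts in osteoblasts, and have 1 or both Trp53 alleles flanked by LoxP sites, and the labels do not say which of the mice lost 1 copy or both. The controls were littermates whose Trp53 alleles are both intact, and the methods write the wild-type genotype with a Cre allele too. The paper calls the controls age-matched, and ages of single mice were not given in the sources used here. Blood of mice with OS was drawn from the heart under sedation once a tumour had formed. Control littermates were picked at random and sacrificed, and the paper gives cardiac puncture as the route of its initial screen. Thawed plasma was filtered to remove cell debris before RNA extraction.

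Red blood cells lose their nucleus but keep small RNAs. miR-144 and miR-451 are cut from a single primary transcript that the factor GATA1 switches on as erythroid cells mature. miR-451 protects red cells against oxidative stress and is known for a hairpin so short that Argonaute 2 cuts it in place of Dicer, while miR-144 is made by Dicer. miR-486 is made from within Ank1, the gene of a red cell membrane protein, and is also abundant in muscle. Red cells that break while blood is drawn release all of these into plasma, and for this reason the level of miR-451 against that of miR-23a, a miRNA that red cells hold little of, is widely used as a marker of haemolysis.

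The mature sequences are shown for the pair from the shared transcript, which report on red cells, and for miR-23a, their partner in the index. Each has its own assay, and no seed is shared among them. The sequences are those of RefSeq on GRCm38.p6, matched by name, with the unstarred names of miR-144 and miR-23a taken as the 3p arm and miR-451 as miR-451a. The seed, bases 2 to 8, is in capitals.
miR-144: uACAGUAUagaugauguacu
miR-451: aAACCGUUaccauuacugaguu
miR-23a: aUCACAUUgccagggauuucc
The hairpins lie on the plus strand at chr11:78073005-78073070 (Mir144) and chr11:78073170-78073241 (Mir451a), 99 bases apart, and are shown with the mature miRNA in capitals.
Mir144: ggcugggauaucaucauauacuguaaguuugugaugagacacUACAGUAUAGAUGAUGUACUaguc
Mir451a: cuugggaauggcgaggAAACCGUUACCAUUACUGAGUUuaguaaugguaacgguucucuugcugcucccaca
In the Mir144 hairpin the mature miRNA stands on the 3′ arm, and in the Mir451a hairpin it begins on the 5′ arm and runs on towards the loop. Mir486 lies at chr8:23142555-23142682, within the span of Ank1, and Mir3107, also called mir-486b, at chr8:23142573-23142662 inside it.

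The values are quantification cycles (Cq), the PCR cycle in which a well's signal passes a threshold, with 1 cycle as 1 log2 unit and more RNA giving a lower Cq. To normalize, the Cq of a well was subtracted from the global mean Cq of its mouse, which makes a higher level stand for more RNA. By mouse, 13.9% to 24.7% of all 768 wells, named or not, were blank. The global mean Cq, taken over the retained named miRNAs, ran from 30.6 to 32.9. Of 388 miRNAs, miR-451 had the 3rd lowest mean Cq, miR-144 the 7th, miR-486 the 8th and miR-486* the 175th. Assays can differ in efficiency, so these ranks order wells and not molecules. Replicates are separate mice.

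miR-144 fell in plasma of mice with OS, miR-451 was lower without passing the test, and the miR-486 wells differed by 0.05 or less on the log2 scale. miR-144 was the only well of the 4 past a limma adjusted p of 0.05, against 12.6% of all 388 miRNAs in either direction, 6.44% lower and 6.19% higher. The Cq of miR-144 had a lowest, median and highest value of 23.2, 24.9 and 27.2 in mice with OS and of 20.5, 22.3 and 24.1 in controls. Its normalized level was 7.09 ± 1.36 (SD, n = 8) in OS and 9.46 ± 0.72 (SD, n = 6) in controls, which is 5.19-fold lower and a log2 difference of -2.38 (limma, adjusted p = 0.0131, standard error 0.56). All 8 mice with OS, from 5.21 to 8.66, lay below all 6 controls, from 8.74 to 10.6. Groups that did not overlap were found for 2.84% of all miRNAs.

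miR-451 was the most abundant of the 4 wells by its Cq, at 19.7, 20.4 and 23.5 (lowest, median and highest) in mice with OS and 17.1, 18.9 and 21.2 in controls. Its normalized level was 11.19 ± 1.48 (SD, n = 8) in OS and 12.62 ± 1.02 (SD, n = 6) in controls. The log2 difference was -1.43 (95% interval -2.75 to -0.11), with an unadjusted p of 0.0350 and a limma adjusted p = 0.132. The groups overlapped, with 4 of the 8 mice with OS below every control and 3 of the 6 controls above every mouse with OS. miR-451 varied 23.9-fold among the mice with OS and 4.33-fold among the controls. The wider span in OS rests much on 1 mouse, OS replicate 10 at 8.23, with the next lowest, OS replicate 12, at 10.1.

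The miR-486 wells gave close to the same level in both groups. miR-486 is the guide arm and miR-486* the arm that is mostly degraded. The Cq of miR-486 was 23.01, 24.6 and 24.9 (lowest, median and highest) in OS and 22.6, 23.7 and 25.9 in controls. Its normalized level was 7.88 ± 0.51 (SD, n = 8) in OS and 7.84 ± 0.63 (SD, n = 6) in controls, with a log2 difference of 0.05 (95% interval -0.69 to 0.78, limma adjusted p = 0.955). miR-486* had a Cq of 31.1, 32.3 and 33.3 (lowest, median and highest) in OS and 30.5, 31.5 and 34.3 in controls, and a log2 difference of 0.04 (95% interval -0.76 to 0.83, limma adjusted p = 0.962). Mice with OS lay within the range of the controls for both wells. Over all 14 mice control replicate 1 had the lowest level of either well and control replicate 3 the highest. For both wells the sign of the difference turned with unscaled Cq, when scaled to miR-191, miR-103 and miR-423-3p, and with a Cq limit of 35, and the adjusted p was 0.674 or more each time.

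**Figure D1:**
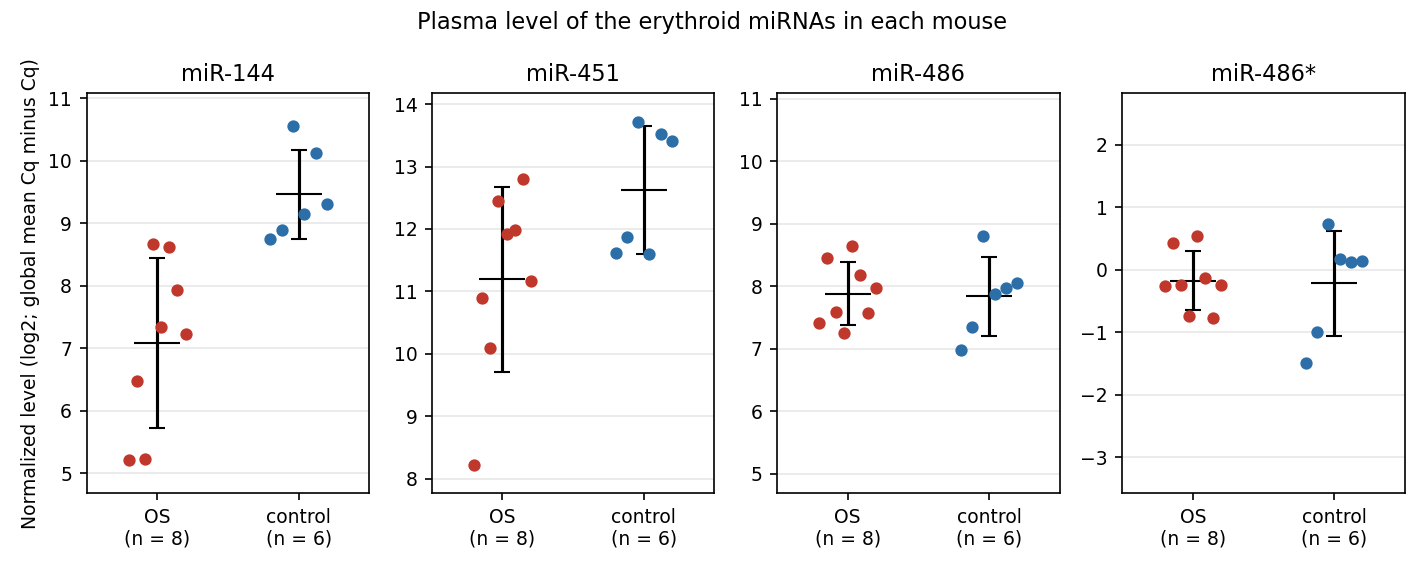
Normalized plasma level (vertical axis, log2, global mean Cq minus Cq) of the 4 erythroid wells, with mice with OS on the left and controls on the right of each panel. Points are mice and bars are the mean and SD. Each panel spans the same number of log2 units. All mice with OS lie below all controls for miR-144, the groups overlap for miR-451, and the mice with OS lie within the range of the controls for miR-486 and miR-486*.

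The fall of miR-144 kept its side of the threshold under each of the other scalings, limits, filters and tests run and without any 1 of the 14 mice (log2 difference -2.60 to -2.10, limma adjusted p 0.00665 to 0.0397). With a single plasma sample per mouse, release from fewer red cells and less of the miRNA in each cell cannot be told apart.

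The red-cell content of each sample was read from the index, obtained by subtracting the Cq of miR-451 from that of miR-23a, which is higher where more red-cell RNA is present and needs no scaling between mice. miR-23a itself differed by 0.14 on the log2 scale (95% interval -0.63 to 0.92, limma adjusted p = 0.828). Among the mice with OS the index was 1.05 in replicate 10, 2.59 in replicate 12, 2.97 in replicate 11, 4.26 in replicate 17, 4.42 in replicate 19, 5.03 in replicate 16, 6.36 in replicate 15 and 6.85 in replicate 18. Among the controls it was 4.11 in replicate 4, 4.38 in replicate 1, 4.99 in replicate 2, 6.88 in replicate 14, 7.03 in replicate 3 and 7.21 in replicate 13. The samples thus spanned 6.16 cycles, which is 71.5-fold if each cycle doubles the product. OS replicates 10, 11 and 12 lay below every control, and the other 5 mice with OS lay within the range of the controls.

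In human plasma an index above 7 is often read as haemolysis and one above 5 as possible haemolysis, and no such limit for mice was at hand. None of the 8 mice with OS and 2 of the 6 controls were over 7, and 3 of 8 and 3 of 6 were over 5. The index averaged 4.19 ± 1.94 (SD, n = 8) in OS and 5.77 ± 1.43 (SD, n = 6) in controls, a difference of -1.58 (exact permutation test, two-sided, p = 0.117).

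The answer depended on which well stood for red cells. With miR-144 in place of miR-451 the index was -2.28, 0.47 and 2.58 (lowest, median and highest) in OS and 1.5, 2.40 and 3.87 in controls, a difference of -2.52 (exact permutation test, p = 0.0120). With miR-486 in its place, a choice made after the values were seen, it was 0.09, 0.85 and 1.76 in OS and -0.27, 1.00 and 2.12 in controls, a difference of -0.10 (exact permutation test, p = 0.802). The whole span over the 14 mice was 6.15 cycles with miR-144 but 2.39 cycles with miR-486, or 5.24-fold. Control replicates 3 and 13 stood among the 3 highest samples by each of the 4 wells. OS replicate 10 was 13th of 14 by miR-144, 14th by miR-451, 12th by miR-486 and 9th by miR-486*, and OS replicate 16 was 11th by miR-144, 6th by miR-451, 2nd by miR-486 and 3rd by miR-486*.

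**Figure D2:**
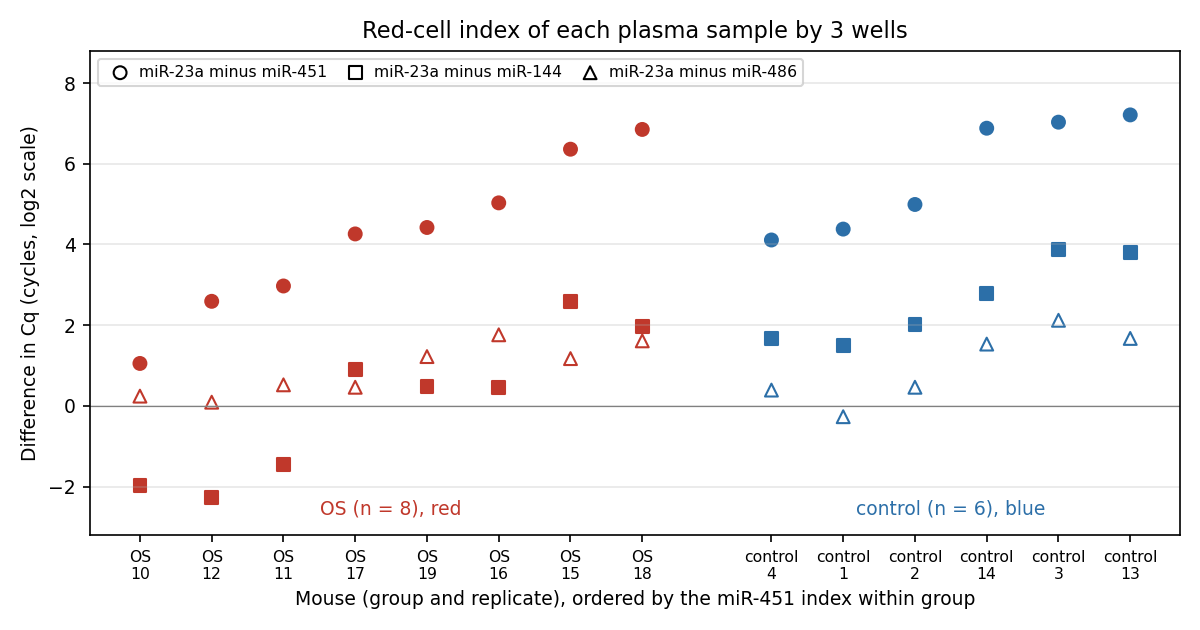
Red-cell index of each plasma sample. The vertical axis is the Cq of miR-23a less that of miR-451 (circles), miR-144 (squares) or miR-486 (triangles), in cycles, and the horizontal axis lists mice with OS on the left (red) and controls on the right (blue), ordered by the circles. Circles run from 1.05 to 7.21 and squares from -2.28 to 3.87, while triangles stay between -0.27 and 2.12.

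Over all 14 mice, with the global mean as scale, the 4 wells formed a pair of pairs, a split that was not clear within the controls. Levels of miR-144 and miR-451 ran together over the 14 mice (Pearson r = 0.878, permutation p = 4e-05; Spearman rho = 0.789, permutation p = 0.00119), with r = 0.884 within OS (exact p = 0.00141) and r = 0.853 within controls (exact p = 0.0153). Without the 2 mice farthest from the median of miR-144, r was 0.777 (permutation p = 0.00301). miR-486 and miR-486*, the guide arm and the starred arm, measured on separate panels, ran together more closely (r = 0.919, permutation p = 1e-05, the smallest the resamples can give). Their rho was 0.912 (permutation p = 3e-05), with r = 0.891 within OS (exact p = 0.00313) and 0.959 within controls (exact p = 0.00694). Without the 2 mice farthest from the median of miR-486, r was 0.868 (permutation p = 0.0003). After adjustment over the 6 pairs of wells these pooled p-values were 0.00012 and 6e-05.

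Between the pairs the agreement over all mice was weak with the global mean as scale. miR-451 and miR-486 had r = 0.326 (permutation p = 0.256, adjusted p = 0.511) and rho = 0.305 (permutation p = 0.287). Their r was 0.00 without the 2 mice farthest from the median of miR-451. miR-144 and miR-486 had r = 0.183 (permutation p = 0.531, adjusted p = 0.696) and rho = 0.147 (permutation p = 0.617). Their r was -0.04 without the 2 mice farthest from the median of miR-144. For miR-486*, r was 0.067 with miR-144 (permutation p = 0.821; rho = 0.2, permutation p = 0.494) and 0.162 with miR-451 (permutation p = 0.580; rho = 0.213, permutation p = 0.463). Within the 6 controls r was 0.884 for miR-144 and miR-486 (exact p = 0.0167) and 0.789 for miR-451 and miR-486 (exact p = 0.0319), each at an adjusted p under 0.05 over the 6 pairs (0.0333 and 0.0479). Within the 8 mice with OS the same values were 0.097 (exact p = 0.814) and 0.193 (exact p = 0.664). The difference in r between the groups was not tested.

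All of these levels share the global mean of the mouse. With unscaled Cq, which share the amount of RNA in the sample instead, r over all mice was 0.915 for miR-144 and miR-451 and 0.976 for miR-486 and miR-486*. Within the mice with OS the unscaled r of miR-451 and miR-486 was 0.250 (exact p = 0.549), and within the controls it was 0.945 (exact p = 0.00278). Over all mice it was 0.625 for miR-451 and miR-486 (adjusted p = 0.0359), and 0.647 when scaled to miR-191, miR-103 and miR-423-3p (adjusted p = 0.0264). The other values between the pairs were higher on these scales too but did not pass. For miR-144 and miR-486 r was 0.550 unscaled and 0.509 scaled to the 3 miRNAs (adjusted p = 0.0592 and 0.0768), for miR-451 and miR-486* 0.536 and 0.510 (0.0592 and 0.0768), and for miR-144 and miR-486* 0.478 and 0.390 (0.0848 and 0.167).

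**Figure D3:**
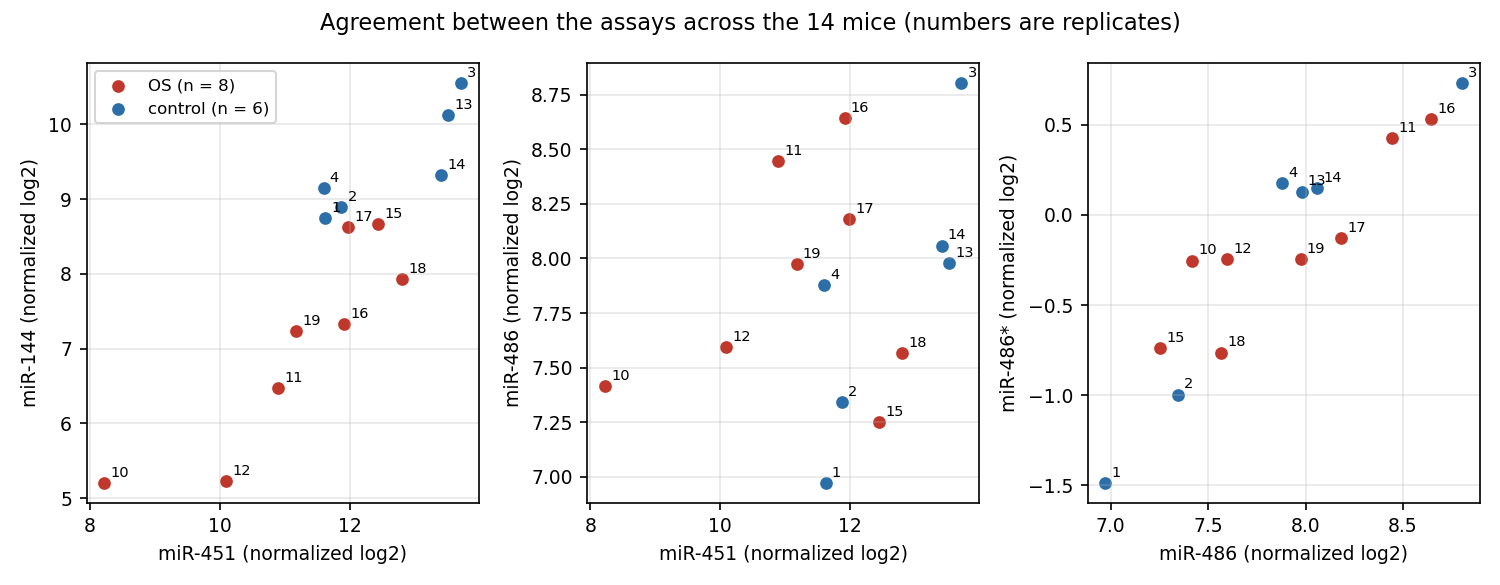
Normalized log2 levels of pairs of wells in the 14 mice, with mice with OS in red and controls in blue, and replicate numbers beside the points. miR-144 runs with miR-451 (r = 0.878) and miR-486* with miR-486 (r = 0.919), while miR-486 and miR-451 are loosely related (r = 0.326) and the mice with OS are spread across the middle panel.

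Ratios between wells of the same mouse, which are free of any scaling, were used to ask whether the red-cell wells moved as 1 group. The SD of the log2 ratio of miR-486 over miR-486* over all 14 mice was 0.249. For wells of the same miRNA on both panels, the SD of the difference was 0.217 for miR-423-3p, 0.215 for miR-191 and 0.126 for miR-103. By contrast the SD was 0.784 for miR-144 over miR-451 and 1.63 for miR-144 over miR-486.

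The log2 ratio of miR-144 over miR-486 was -2.37, -1.02 and 1.41 (lowest, median and highest) in OS and 1.26, 1.65 and 2.14 in controls. It averaged -0.80 ± 1.41 (SD, n = 8) in OS and 1.62 ± 0.34 (SD, n = 6) in controls, a difference of -2.42 (exact permutation test, two-sided, p = 0.00333, adjusted p = 0.0160 over 6 ratios). In 7 of the 8 mice with OS it lay below every control, the exception being OS replicate 15 at 1.41. Against miR-486* the difference was -2.42 as well (exact permutation test, p = 0.00533, adjusted p = 0.0160).

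miR-144 was also lower relative to miR-451, its partner in the shared transcript. The log2 ratio was -4.88, -4.18 and -3.02 (lowest, median and highest) in OS and -4.09, -3.07 and -2.45 in controls. It averaged -4.11 ± 0.69 (SD, n = 8) in OS and -3.16 ± 0.55 (SD, n = 6) in controls, a difference of -0.95 or 1.93-fold (exact permutation test, p = 0.0223, adjusted p = 0.0446). The groups overlapped, and 4 of the 8 mice with OS lay below every control. This call was lost without any 1 of OS replicates 11, 12, 16 and 19 and control replicates 1, 2, 3, 4 and 13 (difference -0.99 to -0.80, adjusted p 0.0548 to 0.0886).

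The ratio of miR-451 over miR-486 averaged 3.31 ± 1.47 (SD, n = 8) in OS and 4.78 ± 0.65 (SD, n = 6) in controls, a difference of -1.48 (exact permutation test, p = 0.0406) that did not pass after adjustment (adjusted p = 0.0609). Against miR-486* the difference was -1.47 (exact permutation test, p = 0.0619, adjusted p = 0.0743). Both passed without OS replicate 15 (adjusted p = 0.0338 and 0.0378) or without OS replicate 18 (adjusted p = 0.0315 and 0.0358). The ratio of the miR-486 arms differed by 0.01 (exact permutation test, p = 0.967).

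**Figure D4:**
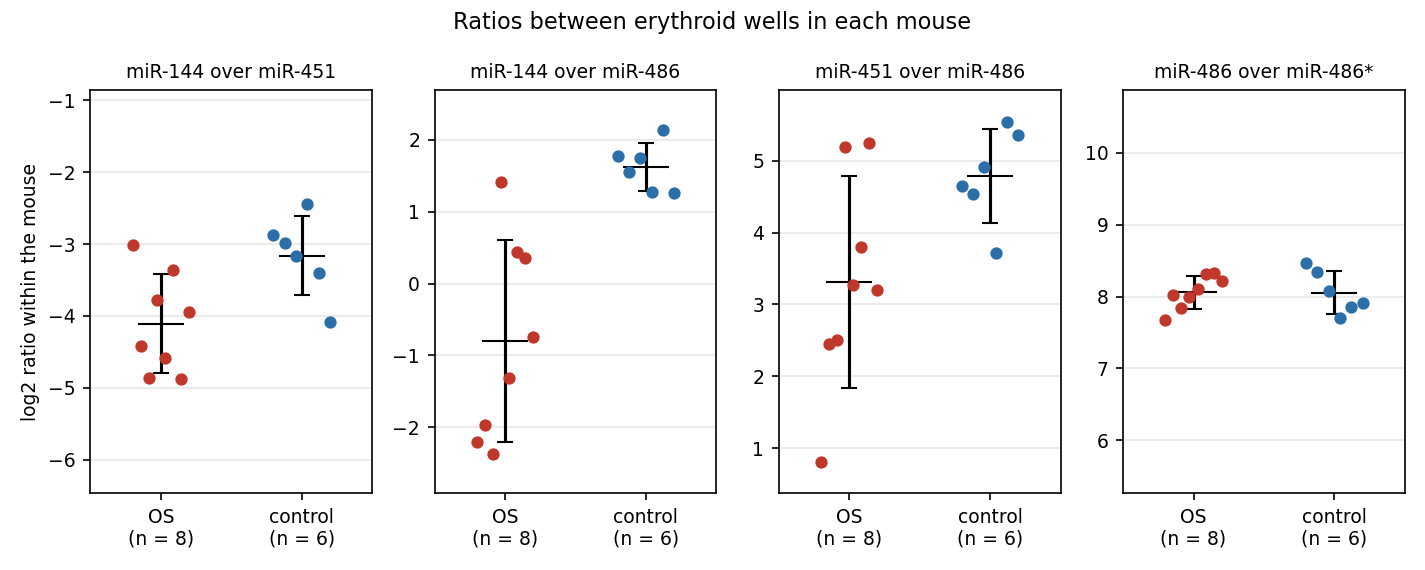
Log2 ratios between erythroid wells within each mouse (vertical axis), with mice with OS on the left and controls on the right of each panel. Points are mice, bars are the mean and SD, and each panel spans the same number of log2 units. For miR-144 over miR-486, 7 of 8 mice with OS lie below every control, while the ratio of the miR-486 arms stays between 7.67 and 8.46 in all mice.

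With the red-cell index as a covariate in limma, the log2 difference of miR-144 was -1.53 (standard error 0.41, adjusted p = 0.0446), against -2.38 without it. The index holds miR-451, so it was not applied to miR-451 itself. With it miR-486 stood at 0.17 (adjusted p = 0.876) and miR-486* at 0.09 (adjusted p = 0.946).

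Other miRNAs that are abundant in red cells were taken from a list of 13, of which 9 had a named well. Of the 9, 2 were lower in OS, none was higher and 7 did not pass, and the median log2 difference was -0.52, against -0.00 over all 388 miRNAs, of which 25 were lower and 24 higher. The estimate was below 0 for 8 of the 9 and for 195 of all 388. miR-15a, a relative of miR-16, fell by 1.66 on the log2 scale (standard error 0.47, limma adjusted p = 0.0295), and miR-106b, a member of the miR-17 family, by 1.42 (standard error 0.45, limma adjusted p = 0.0443). The other members with the smallest p did not pass. They were miR-15b at -1.02 (limma adjusted p = 0.106), miR-16 at -0.77 (0.193), miR-93 at -0.42 (0.403) and miR-25 at -0.52 (0.423), and miR-22, named after its values were seen as the only estimate above 0, was at 0.38 (0.569). Neither call was kept when scaled to miR-191, miR-103 and miR-423-3p, with the methods' t-test or with the index as a covariate. The number called lower ranged from 0 to 3 over the fits that left out 1 mouse. It was 0 without any 1 of OS replicates 10, 11 and 12 and control replicates 3, 13 and 14, the mice with the 3 lowest and the 3 highest values of the index, and 1 without any 1 of OS replicates 16 and 19 and control replicates 2 and 4.

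**Figure D5:**
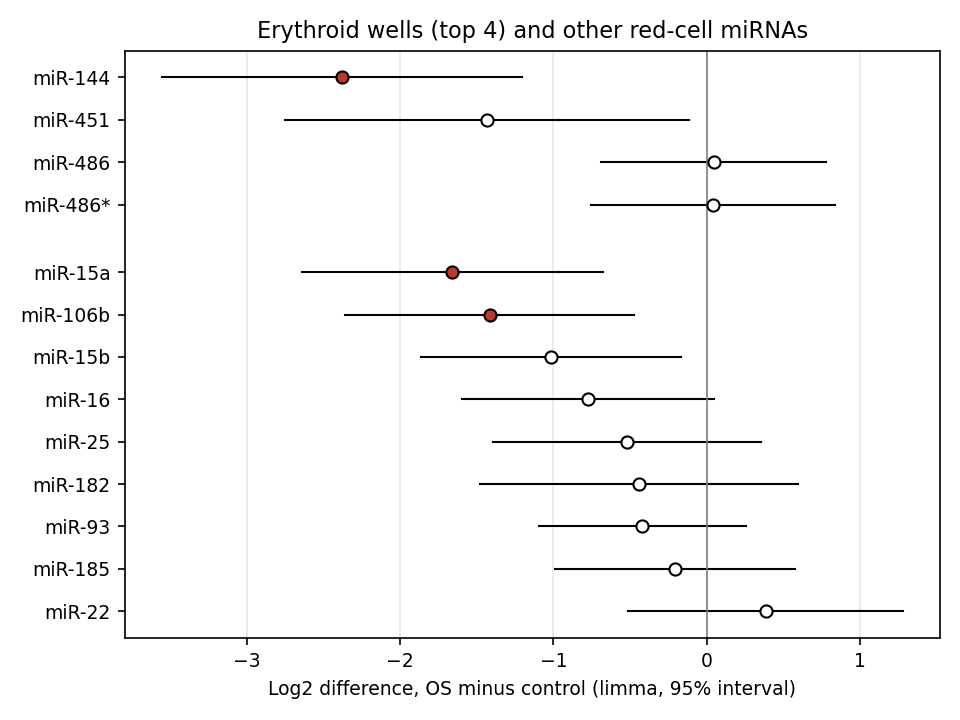
Difference between mice with OS and controls (OS minus control, horizontal axis, log2 of the normalized plasma level) for the 4 erythroid wells at the top and 9 other red-cell miRNAs below. Points are limma estimates, bars are 95% intervals, and filled points passed an adjusted p of 0.05. miR-144, miR-15a and miR-106b passed, and the estimates run from -2.38 for miR-144 to 0.38 for miR-22.

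A list of 6 miRNAs whose level drops as red cells mature had 7 assays, with miR-223 under mouse and rat names, and miR-223, miR-150 and miR-155 are on the white cell list as well. None of the 7 passed an adjusted p of 0.05 in limma or in the methods' t-test, against 12.6% of all miRNAs in limma. With 7 assays at that share this count is no result about the list, and its median log2 difference was -0.16. miR-221 and miR-222, which hold back the Kit receptor in early erythroid cells, were at 0.43 and -0.45 (limma adjusted p = 0.354 and 0.369), and miR-223, a miRNA of myeloid cells, at -0.49 (0.242) with its mouse assay and -0.24 (0.602) with its rat assay.

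White blood cell and platelet miRNAs were read in the same mice. Of 9 white cell assays for 7 miRNAs, miR-142-3p (log2 difference -3.57, limma adjusted p = 0.00326) and the mouse assay of miR-146b (-1.29, limma adjusted p = 0.0407) were lower and none was higher, against 6.44% and 6.19% of all miRNAs. miR-142-5p at -1.18 and the rat assay of miR-146b at -0.98 did not pass (limma adjusted p = 0.106 for each). The number called lower was 1 without any 1 of 11 mice, all but OS replicates 15 and 17 and control replicate 1. It was 1 as well under each of the other scalings, with a Cq limit of 35, with the methods' t-test and with the index as a covariate. The level was summed over the list on the linear scale, with miR-223 and miR-146b each entering by both the mouse and the rat assay. This sum (log2) ran from 7.60 to 8.33 in OS and from 8.31 to 9.57 in controls, and all 9 assays were measured in all mice. Of 6 platelet assays none passed in limma or in the methods' t-test, against 12.6% of all miRNAs in limma. With 6 assays at that share this count is no result about the list. Those with the smallest p were miR-126-5p at -0.73 (limma adjusted p = 0.131) and miR-126-3p at -0.63 (0.154). The platelet list was summed in the same way, with miR-223 entering by both assays. That sum (log2) ran from 8.74 to 9.09 in OS and from 8.82 to 9.73 in controls. The part of white cells and platelets in the fall of miR-144 was not tested.

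The likeness of other miRNAs to miR-144 and miR-451 was taken as Pearson's r of deviations from the group mean over the 14 mice, among 272 other miRNAs measured in every mouse, as a description. The nearest to miR-144 were miR-15a (r = 0.962), miR-148b (0.916), miR-140 (0.880), miR-15b (0.877) and miR-32 (0.876), and miR-451 itself stood at 0.873. The nearest to miR-451 were miR-140 (r = 0.932), miR-582-5p (0.886), miR-30e (0.885), miR-15a (0.863) and miR-16-1* (0.844). These neighbours of miR-144 and miR-451, with miR-15a and miR-140 on both lists, had log2 differences from -1.68 for miR-16-1* to -1.02 for miR-15b. Among them only miR-15a and miR-16-1* passed (limma adjusted p = 0.0295 and 0.0432), against 12.6% of all 388 miRNAs. That count is too small for a result about the neighbours. miR-486 had other neighbours, named after their values were seen. They were miR-425 (r = 0.890), miR-93 (0.835), miR-222 (0.810), miR-25 (0.767) and miR-421 (0.756). Their log2 differences were -0.11, -0.42, -0.45, -0.52 and -0.61, none of which passed. With 5 miRNAs at a share of 12.6% this count is no result about them. miR-93 and miR-25 are on the list of other red-cell miRNAs, as are miR-15a and miR-15b above. The values share the global mean, and miRNAs of a mouse are not independent of each other.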

How the data were processed

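The authors deposited Cq values of Exiqon mouse panels I and II, run on a Roche LC480, on a log2 scale and without scaling between mice. No source used here says whether they precede or follow calibration between plates or removal of outlier wells. Fold changes and p-values of the authors' own comparison were deposited too, in a table used only to name wells by position. Of all 768 wells, 392 had a name there, and the others were left out.

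A Cq over 37 counted as missing, and a miRNA was dropped if missing in at least 75% of mice. This left 388 miRNAs, which were subtracted from the global mean Cq of the mouse. For that mean a missing value took the mean of its group, or Cq 38. Groups were compared by limma 3.58.1 in R 4.3.3, two-sided, without covariates, with Benjamini-Hochberg adjustment over the 388 miRNAs. The index and ratios were compared by exact permutation tests over all 3003 splits, counting differences at least as large in size. Correlations used 100000 resamples over all mice and exact pairings within groups. Python 3.11.15 and pandas 2.3.3 were used, and the code was tested on simulated data.

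No counts lie behind a Cq, so the scatter of mice and of repeated wells sets the precision. Named were the 4 wells, miR-23a, the 3 scaling miRNAs, the 5 nearest neighbours of miR-144 and miR-451, and, per list, members past the threshold and up to 4 more with the smallest p. The members and lists were chosen with earlier results of these data known. Alternatives covered scaling, missing values, Cq limit, filter, test, single mice left out and the index as a covariate. Scaling to miR-486 and the index with miR-486 were added after the data were seen.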

Additional observations from a re-analysis of the deposited data

Results flagged for a closer look

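Values of each group were checked for a single mouse far from the others, over 22 groups of values. The log2 ratio of miR-451 over miR-486* was 11.42 in control replicate 4, apart from the other 5 controls by 0.736 of the range of the group. A flag can arise by chance over that many groups, and ratios that share a well are not independent of each other.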

How the results depend on the processing

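Over the alternatives, 409 values kept their direction and side of the threshold or, for counts, stayed within 1.5 times, 24 turned sign, 9 lost their call, 7 gained one and 33 counts moved. The 409 include list counts that were 0 in every setting. They also include ratios under the Cq limit of 35 and the filling of missing values, which could not change them because no member well was affected. miR-144 passed under every alternative and miR-451 under none (log2 difference -1.87 to -1.0, adjusted p 0.0836 to 0.255). The values that turned sign had no call in any setting. miR-486 was at -0.0096 scaled to miR-191, miR-103 and miR-423-3p, -0.39 with unscaled Cq and -0.0043 with a Cq limit of 35, and miR-486* at -0.016, -0.40 and -0.011 under the same settings and -0.0063 scaled to miR-486. miR-103, in that scaling, itself fell by 1.28 on the log2 scale (adjusted p = 0.0295). With miR-144 in place of miR-451 the index difference passed at -2.52, and the r of miR-451 and miR-486 passed at 0.63 with unscaled Cq and 0.65 scaled to those 3 miRNAs. The number of other red-cell miRNAs called lower, 2 in the report, was 0 when scaled to those 3 miRNAs, 0 with the methods' t-test, 0 with the index as a covariate, 1 scaled to the median, 1 with unscaled Cq and 1 with a Cq limit of 35. The cause of these moves was not tested.

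Leaving out 1 mouse at a time gave a log2 difference of -0.13 to 0.24 for miR-486 and -0.21 to 0.23 for miR-486*, and 0 to 3 other red-cell miRNAs called lower. The ratio of miR-144 over miR-451 ran from -1.13 to -0.80, miR-451 over miR-486 from -1.75 to -1.12, miR-451 over miR-486* from -1.78 to -1.06 and miR-486 over miR-486* from -0.065 to 0.087, as log2 differences between groups. The r of miR-144 ran from -0.042 to 0.30 with miR-486 and from -0.14 to 0.17 with miR-486*. No paired analysis was possible because the labels used here link no control to a mouse with OS by litter.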
